A study of Mus musculus with 8 samples.

Results

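The 4 wild-type outflow tract libraries of the series are described here, out of 8 libraries in all; the other 4 came from outflow tracts in which Mef2c was knocked out in the anterior heart field, and they were not used. The wild-type samples were chosen by the genotype in their labels. They are bulk RNA from outflow tracts of mouse hearts on a CD-1 background, isolated with a Qiagen kit and made into libraries with a NuGEN kit. The labels state neither the stage nor how many embryos or litters went into a sample, so the spread between these samples may in part be technical. Libraries 1 and 2 were sequenced on lane 1 and libraries 3 and 4 on lane 2.

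The outflow tract is the vessel of the embryonic heart through which blood leaves the ventricles for the great arteries. Its wall is cardiac muscle added from the second heart field, and its lumen is lined by endocardium that seeds cushions of loose mesenchyme in a gel rich in hyaluronan and versican. Neural crest cells enter the cushions and help to divide the vessel, and smooth muscle, epicardium and blood are also present in or around it.

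Each library held 7138732 to 11012246 counts, and 3 counts, the limit that a count of 0 allows in 1 library, corresponded to 0.271 to 0.405 CPM, the count scaled to library size. Of 33495 genes, 23383 had a read in some library and 13834 reached 1 CPM in all 4. Reads from the mitochondrial chromosome took 6.74% ± 0.367 of the counts and protein-coding genes 82.7% ± 0.779 (SD, n = 4, as for every ± below unless stated). Levels are compared between genes as CPM per kilobase of summed exon length, and a gene is compared between libraries as CPM. In bulk samples, fewer cells of a type and less RNA per cell cannot be told apart.

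By its mean over the 4 libraries, cardiac actin was the most abundant protein-coding transcript per length, among genes of at least 500 bases and 1000 reads. Actc1, the actin of the cardiac thin filament (ENSMUSG00000068614, chr2:113873018-113879284 in mm9, minus strand), had 4455, 6121, 4092 and 3795 CPM per kilobase in libraries 1, 2, 3 and 4. The level was highest in library 2, and the other 3 libraries lay closer together. Acta2, the smooth muscle actin that embryonic cardiac muscle also uses (ENSMUSG00000035783, chr19:34316014-34329810, minus strand), had 1499, 1796, 1390.0 and 1468. Myl7, the atrial regulatory myosin light chain (ENSMUSG00000020469, chr11:5796640-5798785, minus strand), had 2909, 2719.7, 2172 and 2120.1, and was lower in both libraries of lane 2. Acta1, the actin of adult skeletal muscle (ENSMUSG00000031972, chr8:126415669-126418651, minus strand), had 216, 182, 123 and 142.

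The promoters of these 4 genes are shown because Actc1, Myl7 and Acta2 had the highest levels per length of the contractile genes, and Acta1 is the low striated paralog of Actc1. Each is the 150 bases before the RefSeq gene start, from RefSeq on GRCm38.p6, read 5′ to 3′ on the minus strand: chr2:114052876-114053025 for Actc1, chr19:34255374-34255523 for Acta2, chr8:123894776-123894925 for Acta1 and chr11:5898783-5898932 for Myl7. Capitals mark a CArG box, the motif bound by serum response factor, whose reverse complement is also a CArG box, so that both strands were searched at once.
Actc1: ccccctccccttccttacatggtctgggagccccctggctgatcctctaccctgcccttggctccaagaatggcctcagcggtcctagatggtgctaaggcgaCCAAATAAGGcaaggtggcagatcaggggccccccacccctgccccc
Acta2: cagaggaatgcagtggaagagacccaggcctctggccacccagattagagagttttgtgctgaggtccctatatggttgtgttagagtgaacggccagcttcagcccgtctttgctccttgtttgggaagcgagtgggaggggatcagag
Acta1: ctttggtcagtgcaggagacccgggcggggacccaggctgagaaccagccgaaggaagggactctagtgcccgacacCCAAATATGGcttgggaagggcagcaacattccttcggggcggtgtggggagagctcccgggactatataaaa
Myl7: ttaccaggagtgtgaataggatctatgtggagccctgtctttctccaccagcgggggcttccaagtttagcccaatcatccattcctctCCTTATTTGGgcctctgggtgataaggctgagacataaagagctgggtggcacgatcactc
The box began 47 bases before the start in Actc1, 73 in Acta1 and 61 in Myl7, and the Acta2 window held no exact match. Only exact matches to the consensus were searched, so variant boxes were not counted, and nothing about the factor follows from a window without one. Over all 32851 promoters of the table, 0.916% held a CArG box in this window, and of 27025 genes 280 (1.04%) had at least one such promoter. Among the contractile genes listed for this work, 67 had a promoter in the table and 7 of these held the box, as did 3 of 16 leading members. A match is a description of the letters, and binding was not measured.

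By CPM alone, without length, ribosomal and very long transcripts led. The mitochondrial large ribosomal RNA mt-Rnr2 had 39403 ± 3574 CPM, a ribosomal small-subunit entry on chromosome 17 23275 ± 3727, and Ttn, the giant spring protein titin, 18781 ± 2291. Ttn is 113084 bases long in the table and had only 166 ± 20.3 CPM per kilobase. The short entries Gm23935 and Gm24270, annotated as miRNAs, had 12107 ± 1379.5 and 9961 ± 1130.1 CPM. A second small-subunit ribosomal entry, on chromosome 6, had 6780.0 ± 1315, and mt-Rnr1, the mitochondrial small ribosomal RNA, 12583 ± 843. Of the nuclear genes annotated as protein-coding, Igf2, a fetal growth factor, followed Ttn and Actc1 at 5673 ± 471 CPM. After it came Lars2, the mitochondrial leucine tRNA ligase, at 4144 ± 728, Myh7 at 3818 ± 290.0, Vcan at 3779 ± 784 and Gapdh, a glycolytic enzyme, at 3274 ± 469. Lars2 had 3386, 5105, 3853 and 4233 CPM in libraries 1 to 4, highest in library 2. Both small-subunit entries, Gm23935 and Gm24270 were also highest there, as were mt-Rnr2, Ttn and Actc1. The origin of the reads counted for Lars2, Gm23935 and Gm24270 was not tested. The imprinted non-coding RNA H19 had 3434 ± 235. Together the 10 most abundant genes took 13.2% to 15.3% of the counts of a library.

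Per length, the globins of primitive red cells and mitochondrial genes joined cardiac actin. Hbb-y, an embryonic beta globin, had 1779, 1911, 6083 and 3484 CPM per kilobase, and Hba-x, an embryonic alpha globin, had 1483, 1604, 6016 and 3121. Both were highest in library 3, where they stood above Actc1, and lowest in library 1. The cytochrome oxidase subunit mt-Co1 had 2639 ± 386, the ATP synthase subunit mt-Atp6 1992 ± 421 and cytochrome b, mt-Cytb, 1582 ± 264, each lowest in library 4. mt-Atp6 overlaps 2 other mitochondrial genes on its strand, so its reads could be shared with them. Tnnt2, the cardiac troponin T, had 1488 ± 309.9 CPM per kilobase and Gapdh 1453 ± 208.

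**Figure D1:**
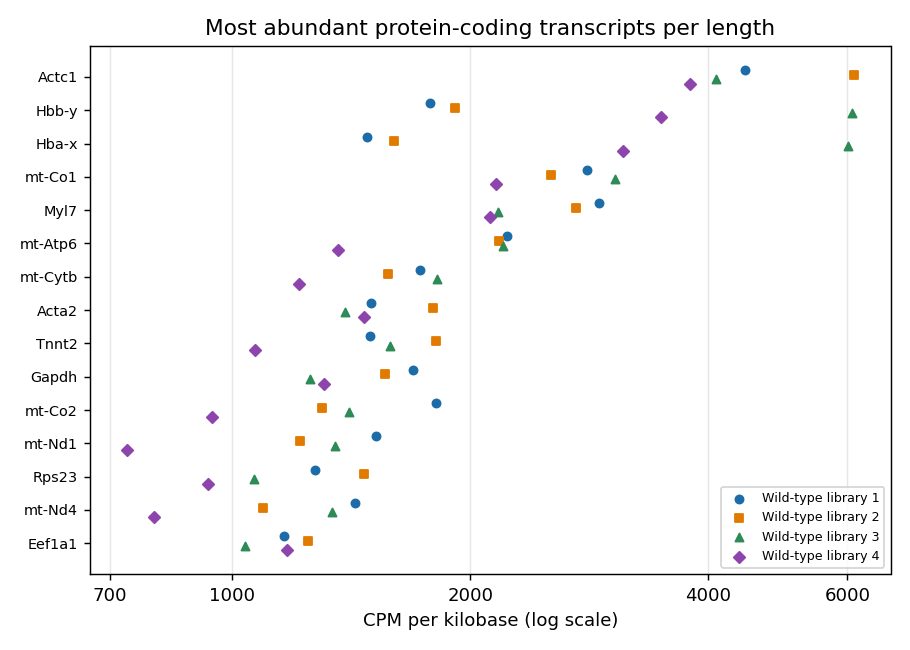
The 15 protein-coding genes with the highest mean CPM per kilobase, among those of at least 500 bases and 1000 reads. Each symbol is 1 wild-type library and the horizontal axis is logarithmic. Cardiac actin (Actc1) leads by the mean, and the globins Hbb-y and Hba-x are highest in library 3, where both lie above Actc1.

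Paralogs were ranked in 61 families of contractile, matrix and transcription factor genes, 310 of whose listed members were in the table. In 51 families the member with the highest mean CPM per kilobase also led in each of the 4 libraries: 15 of 17 contractile, 17 of 20 matrix and 19 of 24 transcription factor families. An exact sign-flip test over 4 libraries cannot reach a p of 0.05, so no lead was tested on its own. Of the 310 members, 221 reached 1 CPM in all 4 libraries and 24 stayed under 3 counts in all 4. A lead is given below as the log2 ratio of the first member to the second per length, as mean ± SD over libraries. Of 238 pairs of neighbours in these rankings, 157 kept their order in all 4 libraries and 79 differed by less than 1 SD.

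Cardiac and embryonic isoforms led the sarcomeric families. Actc1 made up 60.5% ± 4.56 of the summed actin level, and its lead over Acta2 was 1.57 ± 0.16. The cytoplasmic actins followed, Actb at 938 ± 105 and Actg1 at 302 ± 27.3 CPM per kilobase, while the enteric Actg2 had 4.40 ± 2.55. Actin genes share near-identical coding sequence, so reads could be split between them.

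Myosin heavy chain was mostly the slow Myh7 and the fast cardiac Myh6, adjacent genes on chromosome 14. Myh7 had 472, 476, 466 and 403 CPM per kilobase and Myh6 310.1, 418, 299 and 269.6. The lead of Myh7 was 0.50 ± 0.21, with the smallest value, 0.19, in library 2, where Myh6 was highest. The non-muscle chains Myh10 and Myh9 had 61.6 ± 9.06 and 18.0 ± 3.35, and the smooth muscle chain Myh11 had 0.600 ± 0.179. The skeletal chains were close to absent: Myh3 had 7 reads over the 4 libraries, Myh8 2, Myh1 7 and Myh13 0.

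Among regulatory light chains, Myl7 made up 68.5% ± 1.67 of the family and led the smooth muscle chain Myl9 by 1.82 ± 0.04, the lead with the smallest SD of the 61. The ventricular chain Myl2 had 294, 451, 186 and 182 CPM per kilobase and was highest in library 2. Among essential light chains, Myl3 had 487 ± 115 and the embryonic and atrial Myl4 210.3 ± 53.3, a lead of 1.21 ± 0.13. Without division by length Myl4 was ahead, by 0.61 on the log2 scale; its summed exons are 4634 bases against 1306 for Myl3. The table's row named Myl6 carries an identifier whose current symbol is another gene, so Myl6 was left out.

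**Figure D2:**
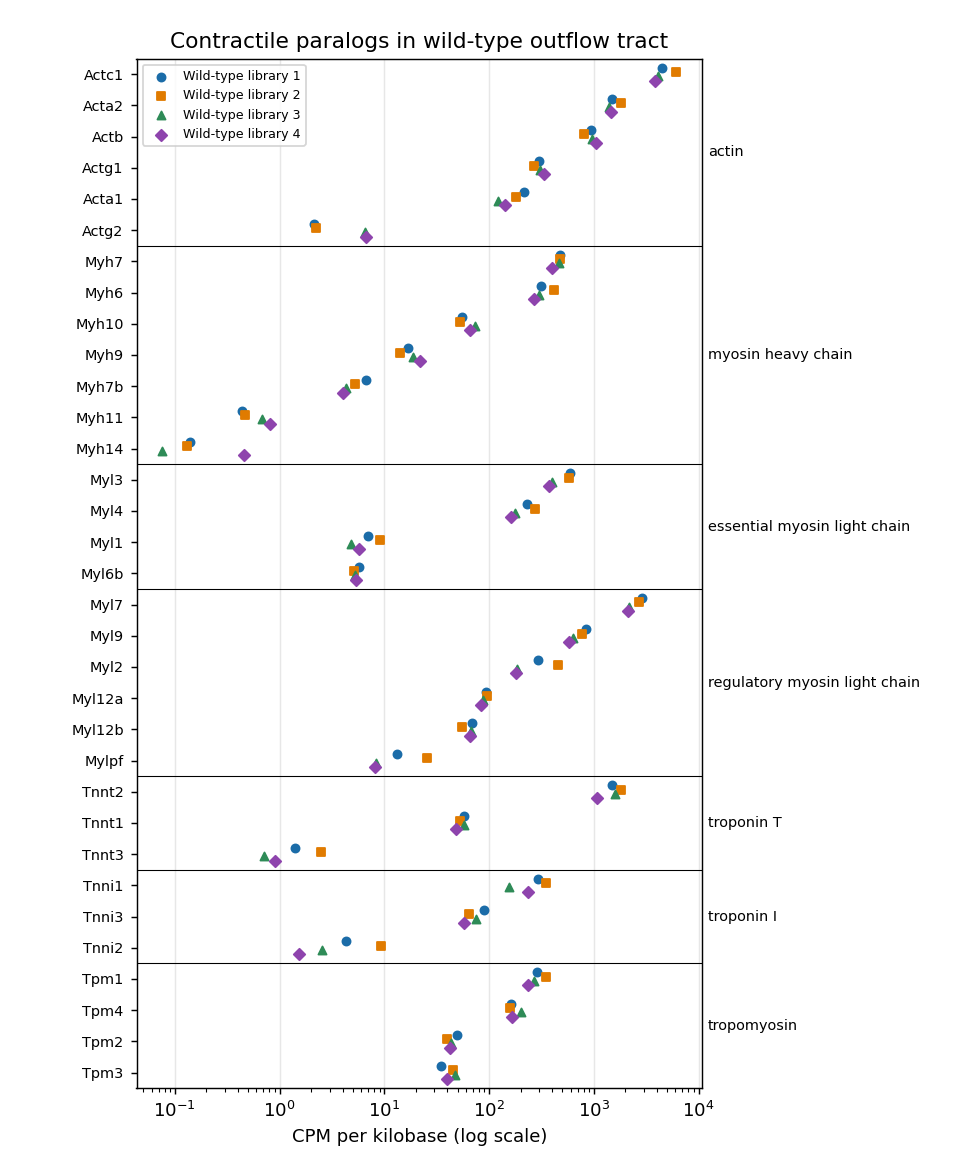
Contractile paralogs with at least 40 reads, grouped by family, as CPM per kilobase on a logarithmic axis. Each symbol is 1 wild-type library. Actc1, Myl7 and Tnnt2 lead their families by more than the spread between libraries, and the Myh7 and Myh6 points lie close in library 2.

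Tnnt2, Tnni1 and Tnnc1 led the troponins. Tnnt2 made up 96.3% ± 0.605 of troponin T, with Tnnt1, the slow skeletal form, at 54.1 ± 4.72 CPM per kilobase. Tnni1, the slow skeletal and fetal troponin I, had 292, 348, 155 and 234, and Tnni3, the adult cardiac form, 88.8, 64.8, 75.0 and 58.1. Tnni1 led in all 4 libraries, by 1.80 ± 0.58, and the gap was narrowest in library 3. Tnnc1, the cardiac troponin C, had 576 ± 127, while Tnnc2 had 0 reads in every library, which places Tnnc1 at least 241-fold higher in each library when Tnnc2 is set to 3 counts per library. Tnnc2 overlaps Ube2c, which had 6979 reads. Among tropomyosins Tpm1 had 285 ± 47.5 and Tpm4 172 ± 19.9. Tpm2 and Tpm3 did not differ beyond their spread, at 0.08 ± 0.31 on the log2 scale.

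Genes of the calcium store and Z-disc bore both cardiac and skeletal names. Atp2a2, the cardiac calcium pump, had 177 ± 28.3 CPM per kilobase against 0.521 ± 0.182 for the skeletal Atp2a1, which overlaps Rabep2. Ryr2, the cardiac ryanodine receptor, had 33.6 ± 7.22. Casq1, the calsequestrin best known from skeletal muscle, had 78.0, 124, 56.5 and 56.0 CPM per kilobase, above Casq2, the cardiac form, at 16.7, 10.3, 16.5 and 11.8. Casq1 was higher in every library, with a lead of 2.45 ± 0.78 that was greatest in library 2. Actn2, the alpha-actinin of the Z-disc, had 104 ± 13.7, and Mybpc3, the cardiac myosin-binding protein, 96.3 ± 9.35, with a slow skeletal paralog, Mybpc1, at 13.3 ± 3.63. Among capping proteins Tmod1 had 54.3 ± 9.98 and the elongation factor Lmod2 39.8 ± 7.68. No stable leader was found in a pair of contractile families: Flna against Flnc (0.65 ± 0.56) and Tagln2 against Tagln (0.15 ± 0.36). Tagln, the smooth muscle transgelin, was the steadier gene, at 162, 165, 163 and 170.3, while Tagln2 ranged more widely.

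Genes of the hyaluronan matrix led their families by wide margins. Vcan, the proteoglycan versican that binds hyaluronan, had 376, 263, 333 and 239.8 CPM per kilobase, and its paralogs were far lower: Acan, the aggrecan of cartilage, had only 69 reads in all. Hapln1, which links versican to hyaluronan, had 167, 109.7, 138 and 104, and Has2, the synthase of hyaluronan, 44.4, 30.0, 52.3 and 39.4. Both led their families in all 4 libraries, by 6.80 ± 0.79 over Hapln3 and 4.49 ± 0.52 over Has1. Vcan and Hapln1 were lowest in library 4 and next lowest in library 2, while Has2 was lowest in library 2.

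Other matrix families had clear leaders too. Sparc, a collagen-binding glycoprotein, had 381 ± 39.7 CPM per kilobase, Gpc3, a glypican, 178 ± 27.2, Lamc1, a laminin gamma chain, 67.4 ± 2.67, and Loxl2, a collagen cross-linking enzyme, 71.3 ± 18.4. Tnc, tenascin C, had 103, 51.3, 100 and 83.2 and was lowest in library 2, and its paralog Tnxb had 12 reads in all. Fibrillin 2 (Fbn2) at 63.6 ± 16.7 stood slightly above fibrillin 1 (Fbn1) at 53.3 ± 14.9 in all 4 libraries, by 0.26 ± 0.12. The basement membrane chains Col4a1 and Col4a2 had 29.7 ± 5.34 and 22.2 ± 2.10. Their models overlap on opposite strands, and the labels do not say whether counting used strand.

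The leading fibrillar collagens had no fixed order. Col2a1, the collagen of cartilage and of cushions, had 51.0, 53.0, 39.5 and 58.2 CPM per kilobase, and Col3a1 29.6, 23.4, 48.9 and 51.3. Col3a1 was ahead in library 3 only, and the lead of Col2a1 was 0.46 ± 0.66. Col1a1 followed at 34.0 ± 9.21. Postn, periostin, a protein of maturing cushions, had 54.7, 15.5, 71.9 and 32.1, with its lowest level in library 2 and its highest in library 3, and Tgfbi had 104, 41.9, 107 and 78.1. Tgfbi led by 1.06 ± 0.39 per length; in CPM alone Postn led by 0.48 on the log2 scale. Fbln2 against Efemp2 (0.20 ± 0.44) and Col6a2 against Col6a1 (0.38 ± 1.15) were not told apart. The exon length given for Col6a1 is only 413 bases, it had 33 reads and it overlaps another entry, so its level is uncertain.

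Tbx20, a T-box factor of myocardium and cushions, was the most abundant transcription factor per length among the 125 measured members of these families. It had 224, 129, 237 and 186 CPM per kilobase, made up 87.9% ± 4.62 of the T-box level and was lowest in library 2. Tbx5, a factor of the atria and left ventricle, had 8.10, 13.3, 5.80 and 5.19 and was highest in library 2. Tbx18, Tbx3 and Tbx2 had 6.91 ± 1.80, 4.59 ± 2.02 and 3.00 ± 0.683. Tbx1, the factor of the second heart field and pharynx, had only 25 reads, most of them in library 4.

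Gata4, a cardiac GATA factor, had 73.1 ± 10.4 CPM per kilobase and led Gata6 at 43.7 ± 7.52 and Gata5 at 38.7 ± 4.08; this order held in all 4 libraries. Gata1, the erythroid GATA factor, had 0.482, 1.10, 4.77 and 1.38, highest in library 3. The MEF2 factors Mef2c, Mef2a and Mef2d were level at 41.6 ± 4.58, 40.5 ± 4.41 and 36.1 ± 3.35, and Mef2c led Mef2a by only 0.04 ± 0.15. Hand1 and Hand2, paired regulators of heart growth, did not differ beyond their spread either, at 32.4, 37.1, 45.2 and 61.7 for Hand1 and 38.1, 37.2, 43.4 and 41.9 for Hand2. Nkx2-5, the cardiac homeobox factor, had 17.4, 21.5, 11.5 and 14.5, and Isl1, the second heart field factor, 7.51, 6.57, 14.2 and 23.2. Isl1 was higher in both libraries of lane 2, while Nkx2-5 was higher in both of lane 1.

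Among other regulators, Tead1 had 63.9 ± 5.39 CPM per kilobase and Myocd, the serum response factor partner of cardiac and smooth muscle, 55.3 ± 11.6. Sox9, a factor of cushion mesenchyme and cartilage, had 55.1, 27.6, 54.6 and 49.6, again lowest in library 2. It led Sox11 by 0.85 ± 0.36, while Sox11, Sox12 and Sox4 had 25.8 ± 7.05, 24.3 ± 3.03 and 24.2 ± 5.12 and kept no fixed order. Hey1 led Hey2, both Notch targets, by 0.65 ± 0.64. Smad2 led the SMADs at 53.3 ± 4.72, and Id3 the ID factors at 70.9 ± 14.9. Twist1, Msx2 and Prrx2, factors of mesenchyme, had 17.7 ± 5.23, 13.8 ± 1.05 and 13.8 ± 0.975. Zeb1 and Snai2 (0.35 ± 0.69), Meis2 and Meis1 (0.37 ± 0.34) and Nfatc3 and Nfatc1 (0.26 ± 0.24) changed order between libraries. Foxc2, at 6.76 ± 1.47, overlaps Usp10 in the table, which had 4737 reads.

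**Figure D3:**
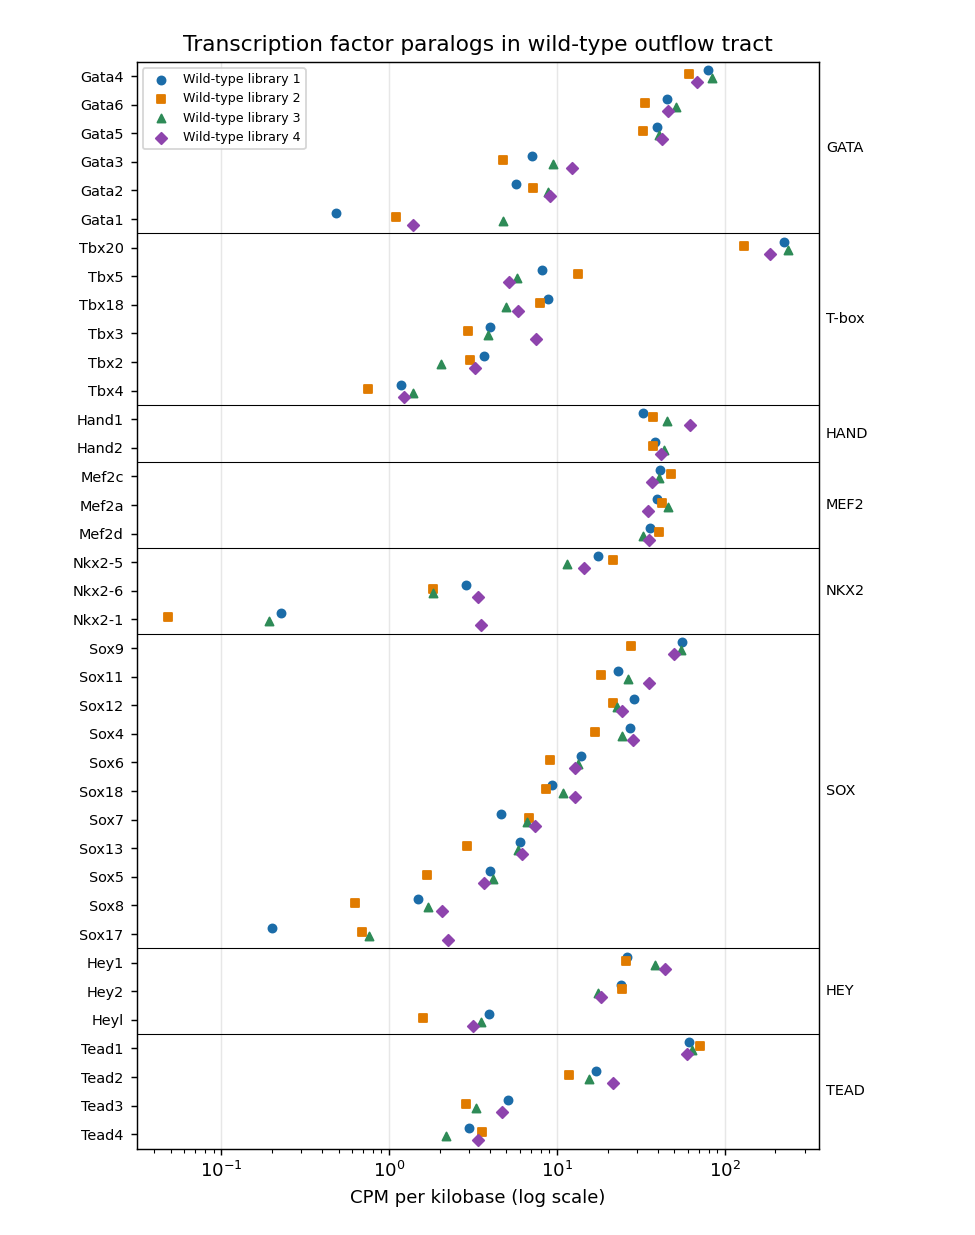
Transcription factor paralogs with at least 40 reads in 8 families, as CPM per kilobase on a logarithmic axis. Each symbol is 1 wild-type library. Tbx20 is the highest gene shown, the MEF2 and HAND factors lie together, and Nkx2-1 is high in library 4 alone.

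The 17 marker lists, of cell types and tissues and of proliferation, were read as summed CPM. Gene length is not divided out of these sums. The cardiomyocyte list had the highest sum, at 40526, 45529, 34784 and 33619 CPM in libraries 1 to 4, and all 14 of its genes reached 1 CPM in every library. The very long Ttn made up 18781 of its mean sum of 38614.5 CPM. Erythroid genes summed to 3561, 3785, 14461 and 7347, and cushion mesenchyme genes to 6796, 4314, 6461 and 4628. Vcan, a cushion matrix proteoglycan, made up 3779 of the mean cushion sum of 5549.5 CPM. With each gene centred on its own mean log2 level, the median over the cushion list was 0.34, -0.62, 0.33 and -0.035 in libraries 1 to 4, lowest in library 2. Smooth muscle genes summed to 3256, 3877, 2957 and 3140.4, led by Acta2 and Myocd, but the defining smooth muscle chain Myh11 had only 3.96 ± 1.18 CPM. Endothelial and endocardial genes gave the narrowest relative range, 912, 979, 947 and 1015, with Cdh5, an endothelial cadherin, at 135 ± 18.6 and Flt1, a VEGF receptor, at 78.9 ± 0.449. Single members varied more than the sum: of the 13 at a mean of 10 CPM or more, 3 (23.1%) ranged over more than 1 log2 unit, against 6.13% of all such genes. These were Npr3, a natriuretic peptide receptor of endocardium, at 29.3, 74.0, 18.6 and 41.8 CPM, Emcn, an endothelial sialomucin, at 19.8, 55.6, 18.6 and 24.4, and Kdr, a VEGF receptor, at 42.4, 84.2, 65.5 and 92.8. Npr3 and Emcn were highest in library 2. Outflow tract and second heart field genes summed to 735, 675, 889 and 776, led by Bmp4 at 176 ± 46.4, a ligand, and Sema3c, a guidance cue, at 159 ± 45.3. The sum was highest in library 3, as were Bmp4, Sema3c and Wnt5a, its 3 most abundant members. With each gene centred on its own mean log2 level, the median over the list was -0.016, -0.033, -0.19 and 0.11 in libraries 1 to 4, lowest in library 3. Proliferation genes summed to 1916, 2253, 2204 and 1824, with Mki67 at 673 ± 134.

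Smaller sums came from epicardium, at 309, 291, 217 and 183 CPM with Upk3b at 76.4 ± 19.6 and Wt1 at 26.7 ± 9.37, and from neural crest, at 303, 248, 337 and 294. The neural crest sum rested on Ets1, Plxna2 and Ednra, which other cell types also express. Ngfr had 16.2 ± 11.3 CPM, Tfap2a 6.83 ± 4.91 and Sox8 4.41 ± 1.84. Sox10 had 1.16 ± 0.630 CPM, and Pax3 and Foxd3 had 0 reads in every library. Of the 12 genes of this list, 6 reached 1 CPM in all 4 libraries and 3 stayed under 3 counts in all 4. The cartilage list, at 1171, 893, 988 and 987, rested on Hapln1 and Col2a1, which belong to the families above, and Matn1 had 0 reads. Regulators of skeletal muscle identity were at the floor: Myod1, Myf5, Myf6 and Pax7 had 0 reads in every library. Liver and yolk sac genes summed to 10.9, 4.70, 2.97 and 2.16, with Afp, alpha-fetoprotein, at 4.16 CPM in library 1. Macrophage genes summed to 11.9, 12.1, 33.1 and 40.6, and neuronal genes to 53.1, 37.9, 46.7 and 43.2.

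**Figure D4:**
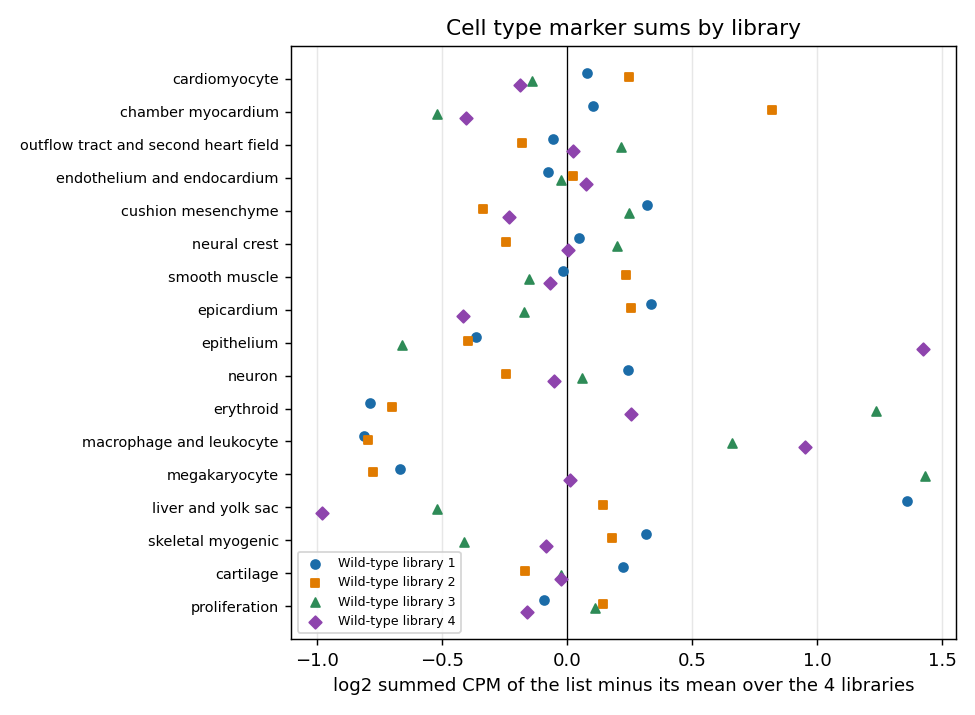
Summed CPM of each marker list by library, as log2 minus the mean over the 4 libraries. Each symbol is 1 wild-type library and the vertical line is the mean. Erythroid and megakaryocyte lists are highest in library 3, chamber myocardium in library 2 and epithelium in library 4.

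Library 4 held epithelial transcripts that were at or near 0 in the others. Cdh1, the epithelial cadherin, had 0.181, 0.134, 0.135 and 36.5 CPM in libraries 1 to 4, and Epcam, an epithelial adhesion molecule, 0.181, 0.134, 0.135 and 15.2. Cldn6, a tight junction claudin, had 0.362, 0.403, 0.135 and 30.6, Esrp1, an epithelial splicing factor, 0.181, 0.134, 0.540 and 12.4, and Trp63, a factor of stratified epithelia, 0, 0.269, 0.676 and 10.9. Nkx2-1, a factor of foregut, lung and thyroid, had 0.633, 0.134, 0.540 and 9.84, while Shh, the hedgehog ligand, and Foxa1, a foregut forkhead factor, had 0 reads in libraries 1, 2 and 3 and 9.16 and 8.22 CPM in library 4. In all, 12 of the 15 genes of the list were highest in library 4, among them Pax1, with 1 read in all, and Foxa2, with 9. The share of all genes highest in library 4 was not counted. Krt5 had 0 reads in every library and Krt8 and Krt18 were found in all 4. The list summed to 62.2, 60.8, 50.7 and 215 CPM, and its mean of 97.1 CPM was 57.9 without library 4. Library 4 also had the highest Ptch1, a hedgehog receptor and target, at 96.5, 86.6, 109 and 257 and the highest Lrp2, an endocytic receptor, at 8.32, 12.6, 14.5 and 41.4; these 2 genes were chosen after their values were seen. Whether tissue next to the outflow tract was included was not tested.

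**Figure D5:**
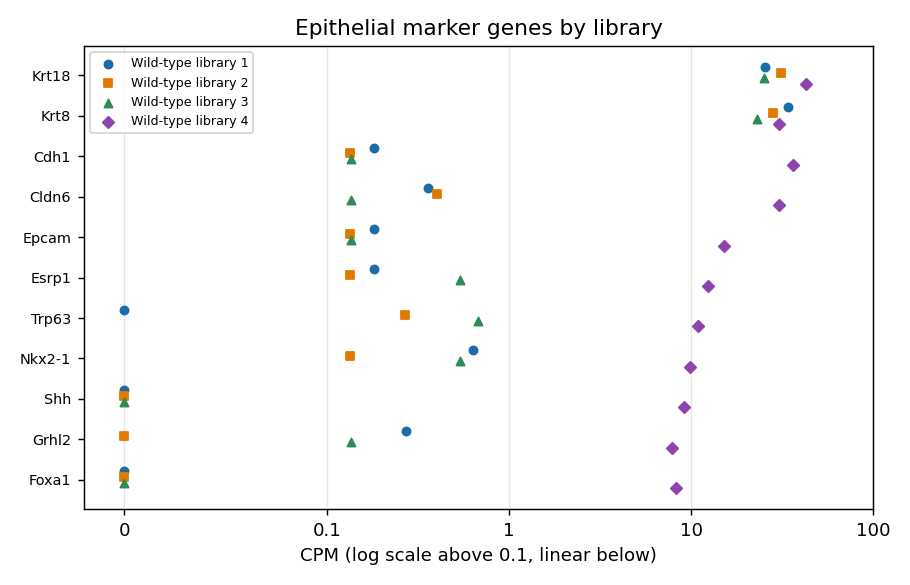
Epithelial marker genes with at least 40 reads, as CPM by library; the axis is logarithmic above 0.1 and linear below it, so that 0 can be shown. Each symbol is 1 wild-type library. All but Krt8 and Krt18 are near 0 in libraries 1, 2 and 3 and between 7.81 and 36.5 CPM in library 4.

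Library 4 also differed in sex-linked genes. Xist, the RNA of X inactivation, had 14.7, 20.4, 5.13 and 1689.8 CPM in libraries 1 to 4. The Y-linked histone demethylase genes Kdm5d and Uty had 0 reads in library 4 and 33.6 to 65.8 CPM in the others. Ddx3y, a Y-linked RNA helicase, had 48.8, 56.3, 60.5 and 0.269, and Eif2s3y, a Y-linked translation factor, 58.8, 68.6, 76.2 and 0.135. Libraries 1, 2 and 3 had Y-linked reads and low Xist, and library 4 the reverse. Sex is not given in the labels.

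Libraries 2 and 3 stood out in other ways. All 12 erythroid genes and all 7 megakaryocyte genes were highest in library 3, where Slc4a1, a red cell membrane transporter, had 525 CPM, and 85.2, 101 and 254 in libraries 1, 2 and 4. Without library 3 the erythroid sum averaged 4898 CPM in place of 7289. In library 2, 9 of 10 chamber myocardium genes and 12 of 14 cardiomyocyte genes were highest, and none of the 12 cushion genes. Of the 12 proliferation genes 10 were highest in library 2 too, though their sum of 2253 CPM there was close to the 2204 CPM of library 3. The share of all genes that were highest in each library was not counted, so these counts cannot be set against it. Nppa, the atrial peptide of chamber muscle, had 16.7, 61.6, 4.32 and 7.68 CPM and Cited1 26.8, 83.5, 12.8 and 17.4. Nppa is overlapped by the antisense RNA Gm13054, which had 12.9, 55.5, 4.05 and 7.28, so the pair cannot be told apart without strand. Pdgfra, a receptor of cushion mesenchyme, had 182, 55.3, 178 and 134, and Robo2, a guidance receptor, 119, 28.3, 132 and 93.6. The proportion of chamber and cushion tissue in each dissection was not tested.

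The spread between libraries was measured over genes that passed a limit on low counts, which differs between the measures below. After edgeR's filter on low counts the biological coefficient of variation was 0.194, and 0.159 with lane in the fit. With no filter it was 0.208. Among 9818 genes at a mean of 10 CPM or more, the median SD of log2 CPM was 0.18 and 6.13% ranged over more than 1 log2 unit. The median SD was 0.25 for 59 contractile genes, 0.36 for 56 matrix genes and 0.26 for 71 transcription factor genes, and 1.04 for 10 erythroid genes. Among the 13834 genes at 1 CPM or more in all 4 libraries, those of low level varied more. At 0 to 2 log2 CPM, 39.6% ranged over more than 1 log2 unit, and at 6 to 8, 2.70%. Between pairs of libraries, 2.86% (libraries 3 and 4) to 6.16% (libraries 2 and 4) of the same genes differed by more than 2-fold. Genes found in 1 library alone are left out of these shares. Among genes at a mean of 10 CPM or more, the 12 with the greatest SD were the 4 Y-linked genes, Xist, the mitochondrial tRNAs mt-Tq and mt-Ti, A530058N18Rik, Ctse, Nppa, Gm13054 and Gm10260. A530058N18Rik, with 1379 reads, lies opposite Actc1, with 248063. It had 86.5, 10.7, 2.84 and 43.2 CPM in libraries 1 to 4, highest in library 1, against 7208, 9903, 6620 and 6140 for Actc1, highest in library 2. Whether the 2 entries share reads was not tested.

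Sequencing lane divided the libraries into pairs, and it cannot be told apart from the samples on it. With edgeR's quasi-likelihood test, 0 of 14766 genes (0.0%) passed an adjusted p of 0.05 between lane 2 and lane 1, while 1920 (13.0%) had an unadjusted p under 0.05 and DESeq2 called 164 of 13409 (1.22%). With edgeR, leaving out library 1, 2, 3 or 4 gave 1139, 284, 209 or 128 calls. The smallest adjusted p with all 4 libraries was 0.0514, shared by 10 genes. Rgs5, a regulator of G protein signalling known from pericytes, had 339.5 and 465 CPM in lane 2, against 83.1 and 124 CPM in lane 1, a log2 difference of 1.96 ± 0.23 (SE). Cxcl12, a chemokine, had 409.5 and 422 CPM in lane 2, against 203 and 143 CPM in lane 1, a difference of 1.26 ± 0.17 (SE), and Mif, a cytokine, had 233 and 228 CPM in lane 2, against 454 and 416 CPM in lane 1, a difference of -0.91 ± 0.13 (SE). The lane 2 libraries lay wholly above the lane 1 libraries for Rgs5 and Cxcl12 and wholly below them for Mif. These genes were picked by the same test, so that separation adds nothing to it. Epor and Alas2, of the erythroid list, were also among the 10 genes, with differences of 1.99 ± 0.28 and 1.74 ± 0.24 (SE). At an unadjusted p under 0.05, 884 of 14766 genes (5.99%) were higher in lane 2 and 1036 (7.02%) lower. Among the tested members of the marker lists, 11 of 12 erythroid genes, 5 of 7 macrophage and leukocyte genes and 3 of 5 megakaryocyte genes were higher at such a p. The filter on low counts had left 7 of 13 macrophage and leukocyte genes and 5 of 7 megakaryocyte genes. Some passed it through lane 2 alone, such as Ptprc, with 0, 1, 14 and 14 reads in libraries 1 to 4. The counts for these lists are therefore partly fixed by the filter. Of the cardiomyocyte list 8 of 14 genes were lower, as were 5 of 9 chamber myocardium and 5 of 9 epicardium genes. None of 14 endothelial genes and none of 12 cushion genes had such a p in either direction.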

How the data were processed

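The authors deposited whole-number counts for each gene in each library. Per the submitters' processing notes, TopHat2 2.0.4 was used and the genome was mm9. How reads were counted, with or without strand, and on which annotation release is not given in the sources used here. Also deposited by the authors were 1 pooled FPKM value per group, normalized log2 values per library, a log2 fold change, and scores, per the file headers; of these the wild-type FPKM alone was used. It lay within 20% of the CPM per kilobase computed here for 99.98% of 12689 genes.

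From the 4 wild-type columns, CPM was computed with TMM-scaled library sizes in edgeR 4.0.16 (R 4.3.3), and divided by the deposited summed exon length. Log2 CPM used a prior count of 2. Current symbols were matched to 28692 of 33495 identifiers, from the reference gene names. Lanes were compared by edgeR's quasi-likelihood test, Benjamini-Hochberg adjusted, with DESeq2 1.42.0 as the alternative. Floors cover counting error only.

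Named genes were the 15 highest by CPM and by CPM per kilobase, the first members of each family and list, members under the floor, and the 12 with the greatest SD among genes at a mean of 10 CPM or more. The rest of the named genes are members of those lists or were chosen after their values were seen. The members and lists were chosen with earlier results of these data known. Some members of the lists are not reported here by name. Alternatives were size factors, filters, mitochondrial reads, length and each library left out.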

Additional observations from a re-analysis of the deposited data

Results flagged for a closer look

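In 9 of 112 values searched, 1 library lay far from the other 3 by Dixon's ratio. Chance gives about 1 in 20 groups when the values are independent and not picked from the data. Some of these were picked for their spread between libraries, among them the Y-linked genes, so the 9 cannot be judged against that rate. The log2 summed CPM of the epithelium list was 7.75 in library 4 and 5.66 to 5.96 in the others. The log2 lead of Myh7 over Myh6 was 0.19 in library 2 and 0.58 to 0.64 in the others, and that of Six5 over Six4 was 0.57 in library 4 and 0.77 to 0.78 in the others. Log2 CPM of Myh7 was 11.73 in library 4 and 11.93 to 11.97 in the others, and that of mt-Atp6 was 9.76 and 10.44 to 10.47. The Y-linked genes stood apart in library 4 too: Kdm5d at -2.06 against 5.62 to 6.05, Uty at -2.06 against 5.08 to 5.21, Ddx3y at -0.97 against 5.62 to 5.93, and Eif2s3y at -1.42 against 5.88 to 6.26 log2 CPM.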

How the results depend on the processing

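Without division by length, 24 of the 59 leads considered here stayed within 1 SD, 28 moved and 7 reversed: Myl3 over Myl4 to -0.61, Tgfbi over Postn to -0.48, Hand1 over Hand2 to -0.070, Mef2c over Mef2a to -1.21, Sox9 over Sox11 to -0.16, Prrx2 over Prrx1 to -0.19 and Six5 over Six4 to -0.32 on the log2 scale; only the division by length differs there. With the authors' pooled FPKM, 58 of 58 leads stayed within 1 SD. With each library left out in turn, the lead of Hand1 over Hand2 ranged over -0.061 (without library 4) to 0.20, and that of Mef2c over Mef2a over -0.011 (without library 2) to 0.11. Genes called between lanes were 0 with TMM and with library size alone, 11 with RLE size factors, 10 without mitochondrial reads, 746 with no filter on low counts and 164 with DESeq2; leaving out each library in turn gave 128 to 1139, and there the lone sample of a lane is assumed to vary like the others. The cause of these differences was not tested. The biological coefficient of variation was 0.159 with lane as a term and 0.185 to 0.221 with 1 library left out, the highest without library 1. The 10 most abundant genes took 10.3% of counts without mitochondrial reads and 6.87% among protein-coding genes only, the protein-coding share being added after seeing the data. No paired analysis was possible because only the wild-type group was used. Depth limits what can be said of genes under 3 counts in a library, and stage, litter and pooling are not known.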
